A study of Homo sapiens with 6 samples.

Results

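The 17 rows described here are the RNAs encoded in human mitochondrial DNA (mtDNA), picked from 32357 rows of a count table by a gene symbol that begins with MT-. They comprise all 13 protein-coding genes of the mitochondrial genome, both of its ribosomal RNAs (MT-RNR1 and MT-RNR2) and 2 of its 22 transfer RNAs (MT-TP and MT-TF). Each protein-coding row is called an mRNA here, also where the reading frames of neighbours overlap. All 17 passed the filter on low counts. The RNA came from 6 libraries of A-498 and 786-O, established clear cell renal cell carcinoma lines that lack a working VHL tumour suppressor. In each line, 1 library came from cells with ZNF395 hairpin 1, 1 from cells with ZNF395 hairpin 3 and 1 from cells with a non-targeting hairpin, the control. All cells, controls included, had been infected with a retroviral short hairpin vector packaged in HEK293T cells and kept in puromycin. ZNF395 is a zinc finger protein, and the study asked what its knockdown changes in the transcriptome. Total RNA was converted to libraries with a stranded kit for total RNA (Illumina Tru-Seq).

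The mitochondrial genome is a small circle read in both directions by the polymerase POLRMT with its partners TFAM and TFB2M. Transcription from the heavy-strand promoters gives a long precursor with both rRNAs, nearly all mRNAs and most tRNAs, and transcription from the light-strand promoter gives MT-ND6 and the remaining tRNAs. The tRNAs lie between the other genes and are cut out by the mitochondrial RNase P (which contains HSD17B10) and by ELAC2, which frees the mRNAs and rRNAs. From then on each RNA has its own lifetime, and the LRPPRC complex stabilises mRNAs. The encoded proteins are subunits of respiratory complexes I, III and IV and of the ATP synthase. Clear cell carcinomas are known for low respiratory gene content and active HIF signalling.

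Of the 17 rows, 15 belong to the heavy-strand promoters and 2, MT-ND6 and MT-TP, to the light-strand promoter. Sequences and positions are those of GENCODE release 29 on GRCh38, since no genome of the build named in the submitters' processing notes (hg19 and hs37d5) was used here. The first pair shows the tRNA genes that the table counts, each 5′ to 3′ on its own strand with the anticodon in capitals: MT-TP (tRNA-Pro, chrM:15956-16023, minus strand) and MT-TF (tRNA-Phe, chrM:577-647, plus strand).
MT-TP: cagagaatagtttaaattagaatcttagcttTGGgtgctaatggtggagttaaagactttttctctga
MT-TF: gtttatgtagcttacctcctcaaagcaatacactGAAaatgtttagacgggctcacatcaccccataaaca

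The next pair shows where reading frames overlap, because a read there can belong to either gene. MT-ATP8 (chrM:8366-8572, plus strand) shares its last 46 bases with MT-ATP6, and MT-ND4L (chrM:10470-10766, plus strand), of which the last 60 bases are given, shares 7 with MT-ND4. The shared bases are in capitals.
MT-ATP8: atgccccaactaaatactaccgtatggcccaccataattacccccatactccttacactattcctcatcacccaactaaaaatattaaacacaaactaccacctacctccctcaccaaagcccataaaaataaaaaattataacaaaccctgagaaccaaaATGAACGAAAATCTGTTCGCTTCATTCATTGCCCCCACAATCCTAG
MT-ND4L end: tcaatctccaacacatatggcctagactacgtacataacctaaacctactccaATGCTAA

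The last pair shows the strand asymmetry that sets MT-ND6 apart, as the first 120 bases of MT-ND6 (chrM:14149-14673, minus strand) and of MT-CO1 (chrM:5904-7445, plus strand) with every G in capitals. The windows hold 40 and 24 G. Over whole genes, G made up 35.6% of MT-ND6 and 6.28 to 16.2% of the 12 mRNAs read from the heavy-strand promoters.
MT-ND6 start: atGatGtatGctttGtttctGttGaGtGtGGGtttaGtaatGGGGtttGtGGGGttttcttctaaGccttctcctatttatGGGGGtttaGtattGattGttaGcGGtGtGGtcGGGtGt
MT-CO1 start: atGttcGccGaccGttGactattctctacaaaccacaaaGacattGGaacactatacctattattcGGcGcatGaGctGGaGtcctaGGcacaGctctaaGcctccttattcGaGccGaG

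Library totals were 77534125 to 99147218 counts, so that 1 CPM (a count scaled to the size of its library) was 77.5 to 99.1 counts. ZNF395 itself stood at 13.5 to 24.7 CPM in the 4 knockdown libraries, against 67.9 and 96.3 CPM in the A-498 and 786-O controls. Of the renal carcinoma markers, PAX8, PAX2, EGLN3, VIM, KRT8 and KRT18 averaged at least 1 CPM, while CA9 and NDUFA4L2 averaged less. No endothelial or leukocyte marker averaged 1 CPM over the 6 libraries. The endothelial marker TEK stood at 1.47 to 2.15 CPM in A-498 but at 0.0506 to 0.120 CPM in 786-O. Of 5 markers of the packaging cells, NEFL and NEFM averaged at least 1 CPM, with a list total of 373 to 444 CPM in A-498 and 200.1 to 261 CPM in 786-O. NEFM stood at 44.1 to 45.2 CPM in A-498 but at 0.107 to 0.740 CPM in 786-O. The fibroblast list totalled 19.5 to 41.3 CPM in A-498 and 6.77 to 9.41 CPM in 786-O. In A-498 nearly all of it was COL1A1 (18.5 to 40.8 CPM), with LUM at 0 to 0.0204 CPM. In 786-O it came from COL1A1, LUM and PDGFRB. The part of these markers in the differences between the lines was not tested. Since each line and construct had 1 library, p-values measure only the spread that a model leaves between these 6 libraries, which no repeat culture informs.

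mRNAs made up most of the mitochondrial counts. Their share of all counts was 6.17% with hairpin 1, 6.41% with hairpin 3 and 6.82% with the control in A-498, against 4.82, 4.58 and 4.86% in 786-O in the same order of constructs. The rRNA share was 0.844, 0.962 and 1.38% in A-498 and 0.582, 0.548 and 0.588% in 786-O. The A-498 control thus had the highest share of each class, and all 3 A-498 libraries lay above all 3 786-O libraries. Counting error is small beside these gaps: the 95% Wilson intervals of the rRNA share in the controls were 1.375 to 1.38% in A-498 and 0.586 to 0.589% in 786-O, and such intervals cover counting error only. In bulk RNA, fewer mitochondrial transcripts per cell, a different mix of cells and more nuclear RNA cannot be told apart.

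**Figure D1:**
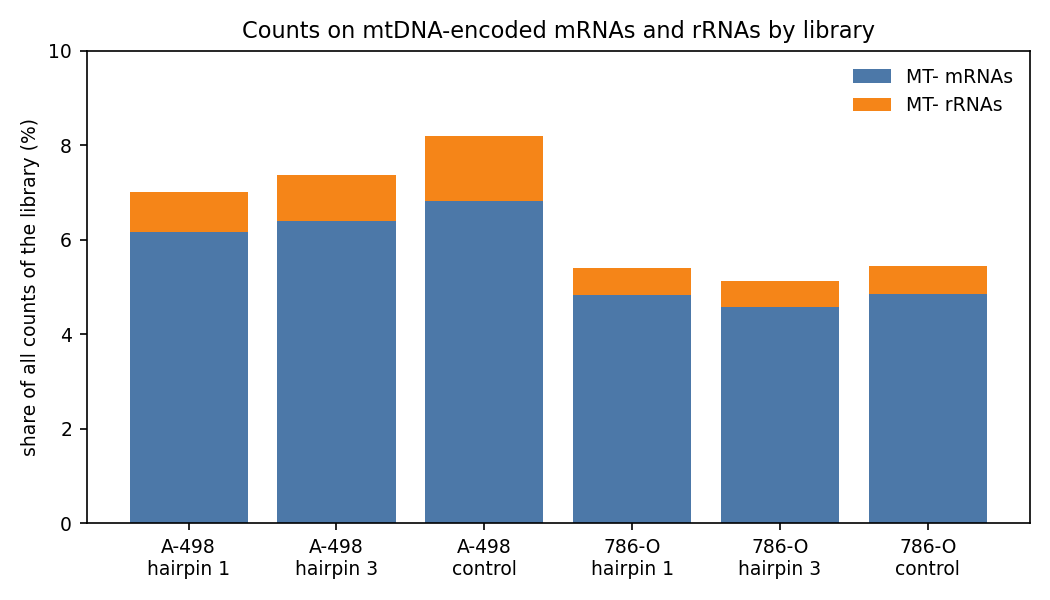
Stacked bars give the share of all counts (%) on the 13 mtDNA-encoded mRNAs (blue) and the 2 rRNAs (orange) in each library, with the A-498 libraries on the left. The A-498 control is highest, at 6.82% for mRNAs and 1.38% for rRNAs, and the 786-O bars are nearly level. The tRNA rows, under 0.006%, are not drawn.

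Tested on these shares, A-498 and 786-O differed as far as 3 libraries against 3 can show. mRNAs took 6.47 ± 0.330% of the counts in A-498 and 4.75 ± 0.154% in 786-O (SD, n = 3 each), a log2 difference of 0.44 (p = 0.1, two-sided exact permutation test). For rRNAs the means were 1.06 ± 0.280% and 0.572 ± 0.0215% in A-498 and 786-O (log2 difference 0.86, p = 0.1, exact permutation test, n = 3 each). A p of 0.1 is the smallest this design allows. The light-strand pair, MT-ND6 and MT-TP, took 0.0999 ± 0.0227% in A-498 and 0.0985 ± 0.00403% in 786-O (log2 difference -0.0035, p = 1, exact permutation test, n = 3 each). That difference is far inside the spread between libraries, and its sign changed with the denominator.

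To compare genes with each other, CPM were divided by gene length in kilobases. The cytochrome c oxidase mRNA MT-CO2 was the most abundant per length in every library, at 12699 to 15412 CPM per kb in A-498 and 10634 to 12481 in 786-O. The other complex IV mRNAs were also high, with MT-CO1 at 9478 to 11307 CPM per kb in A-498 and 5993 to 6073 in 786-O, and MT-CO3 at 7428 to 9913 and 5901 to 7152 in the same order of lines. MT-ATP6, the proton channel subunit of the ATP synthase, and MT-ND4 of complex I lay at 5604 to 8282 CPM per kb over all libraries. The remaining complex I mRNAs MT-ND2, MT-ND4L, MT-ND3, MT-ND1, MT-ND5 and MT-ND6, the complex III mRNA MT-CYB and MT-ATP8 lay between 1378 and 3505 CPM per kb. Over the 6 libraries, MT-ND2 and MT-ND4L lay above MT-ND1, MT-ND3, MT-ND5, MT-ND6 and MT-ATP8 without overlap. Within each of these groups the ranges overlapped, and MT-CYB overlapped both. MT-TP stood at 660.2 to 804 CPM per kb, close to MT-RNR1, and MT-TF had only 4 to 22 counts per library.

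**Figure D2:**
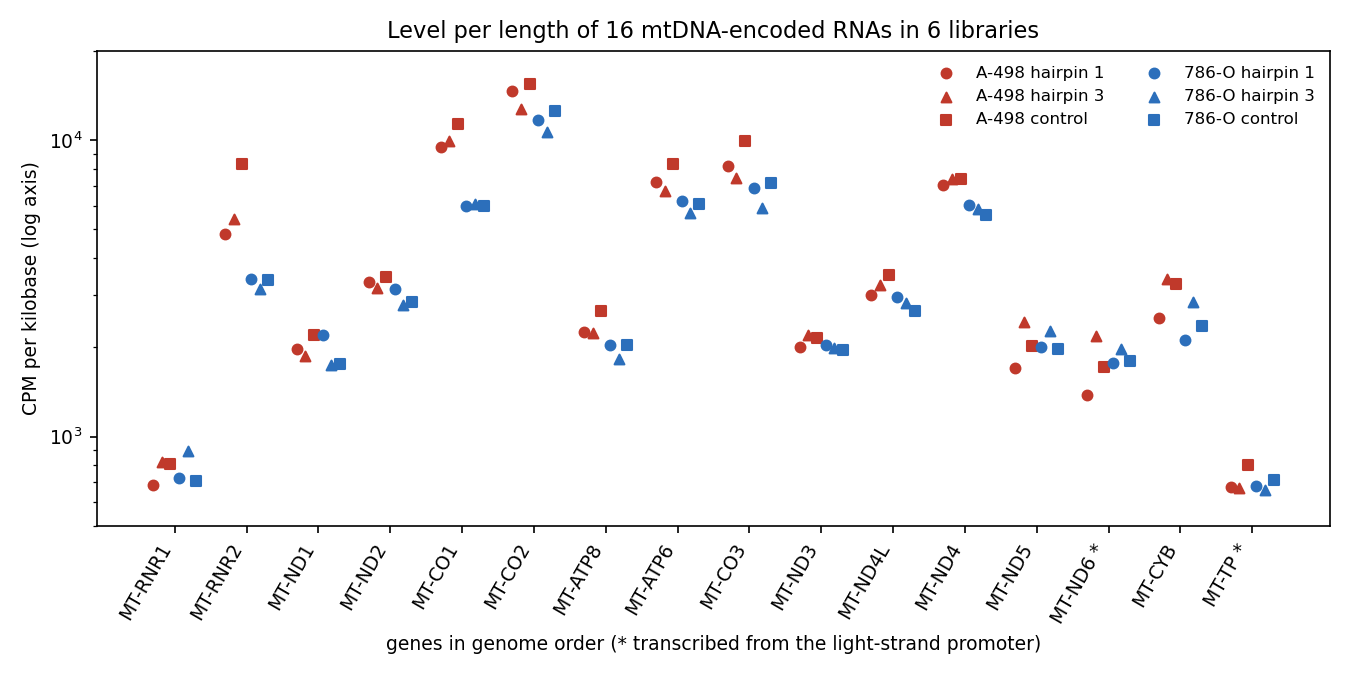
Each point is 1 library's CPM per kilobase of gene length (log axis) for 16 of the rows in genome order, with A-498 in red, 786-O in blue and the construct given by the marker shape. MT-CO2 tops every library, and MT-RNR1 and MT-TP sit at the bottom. MT-TF, with 4 to 22 counts per library, is not drawn.

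Both rRNAs come from neighbouring genes of 1 precursor and are needed in equal numbers in the mitoribosome, but their rows were far apart. MT-RNR2 exceeded MT-RNR1 per kb 7.05 and 6.56 times with hairpins 1 and 3 and 10.3 times with the control in A-498, and 4.68, 3.53 and 4.77 times in 786-O in the same order. Total RNA kits deplete rRNA before the library is made. Which version was used, and whether it also removes mitochondrial rRNA, was not given in the sources used here, so that the rRNA levels are those left after depletion. The overlapping pairs kept narrow ratios. Per kb, MT-ATP8 had 0.314 to 0.336 of the level of MT-ATP6 over the 6 libraries, and MT-ND4L had 0.424 to 0.489 of that of MT-ND4. How reads in the shared bases were counted is not given, so the levels of the short genes are uncertain. The ratios within these pairs are therefore not read as differences in abundance between separate RNAs.

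The difference between the lines was uneven along the genome. Of the 17 rows, 2 were higher in A-498 by edgeR's quasi-likelihood test at an adjusted p under 0.05, and 0 were lower. Over all 20144 genes tested, 47.2% were called between the lines and 25.7% were called as higher in A-498, so that the 11.8% of the members lay below that background. The called rows were MT-CO1, the catalytic subunit of complex IV, and MT-RNR2, the 16S rRNA of the large mitoribosomal subunit. The members' median log2 fold change was 0.21, against 0.02 over all genes tested.

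MT-CO1 stood at 14615, 15315 and 17436 CPM in A-498 with hairpin 1, hairpin 3 and the control, against 9263, 9364 and 9241 CPM in 786-O. The groups did not overlap, and MT-CO1 was higher in A-498 within each of the 3 constructs. The log2 fold change was 0.76 (SE 0.125, adjusted p = 0.00333, edgeR). MT-RNR2 stood at 7517, 8419 and 12926 CPM in A-498, against 5286, 4906 and 5251 CPM in 786-O in the same order. Here too the lines did not overlap, but the A-498 control stood well above both A-498 knockdown libraries. The log2 fold change was 0.86 (SE 0.174, adjusted p = 0.00746, edgeR), and 0.64 (adjusted p = 0.0494) without the A-498 control.

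The other 15 rows did not pass. In 9 of the 17, all 3 A-498 libraries lay above all 3 786-O libraries, beside 31.1% of all genes tested, and these were MT-RNR2, MT-ND2, MT-CO1, MT-CO2, MT-ATP8, MT-ATP6, MT-CO3, MT-ND4L and MT-ND4. Besides the called pair, the largest log2 fold changes in this group were 0.35 for MT-CO3 (SE 0.135, adjusted p = 0.0729) and 0.32 for MT-ND4 (SE 0.119). MT-CO2 stood at 10016, 8686 and 10542 CPM in A-498, against 7961, 7274 and 8537 CPM in 786-O. MT-CO3 stood at 6427, 5824 and 7772 CPM in A-498, against 5406, 4626 and 5608 CPM in 786-O. For both, the lowest A-498 library was only slightly above the highest 786-O library.

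A further group had values near 0 between the lines, none past the test. These were MT-RNR1 (log2 fold change -0.003, SE 0.158), MT-ND5 (-0.02, SE 0.169), MT-ND6 (-0.07, SE 0.192), MT-TP (0.06, SE 0.127), MT-ND1 (0.08, SE 0.155) and MT-ND3 (0.08, SE 0.124). MT-RNR1, the 12S rRNA of the small mitoribosomal subunit, stood at 652, 785 and 769 CPM in A-498, against 691, 850 and 674 CPM in 786-O. The ranges of the lines overlapped. MT-TF, at 4, 10 and 11 counts in A-498 and 18, 9 and 22 counts in 786-O, was the row with the lowest log2 fold change (-1.22, SE 0.455, adjusted p = 0.0647), on too few counts to read further. It was the only 1 of 17 with all 3 A-498 libraries below all 3 786-O libraries by CPM, beside 28% of all genes.

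**Figure D3:**
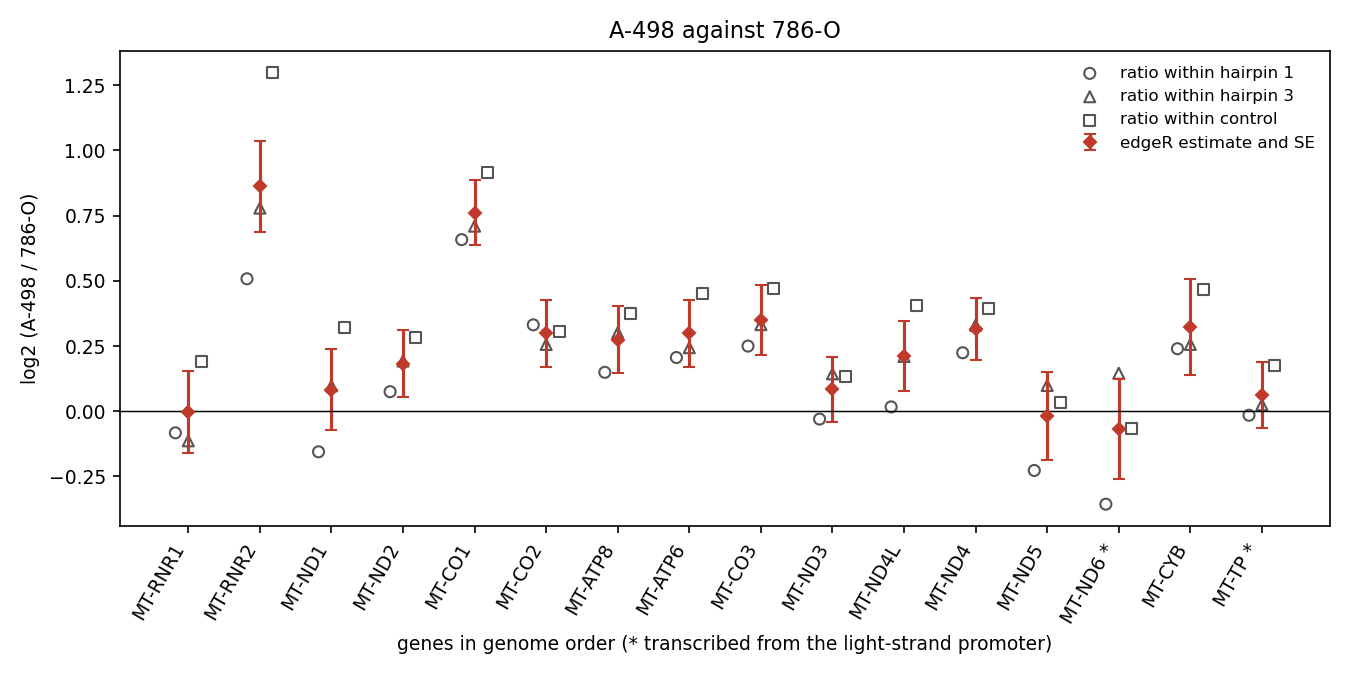
Open markers give log2 (A-498 / 786-O) of CPM within each construct, and red diamonds with bars give edgeR's estimate and its standard error, for 16 rows in genome order. MT-RNR2 (0.86) and MT-CO1 (0.76) stand clear of 0 in all 3 constructs, while MT-RNR1, MT-ND5 and MT-ND6 lie around 0.

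The scale matters to this comparison. When each library was scaled to its own MT- total, the median of all genes moved to -0.40 and the members' median to -0.21. MT-CO1 (0.34, adjusted p = 0.0378) and MT-RNR2 (0.45, adjusted p = 0.0302) were still called as higher in A-498 in edgeR's test, so that both were higher relative to the other mitochondrial RNAs as well, and MT-TF was then called as lower. Of all genes, 56.7% were called in either direction on that scale. With the construct as a block in edgeR, 4 of 17 rows were called as higher in A-498, beside 61.9% of all genes called in either direction. These were MT-CO1, MT-RNR2, MT-CO3 (0.35, adjusted p = 0.0349) and MT-CYB (0.32, adjusted p = 0.0441).

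The make-up of the mRNA pool showed the same feature without any scaling between libraries. MT-CO1 took 24.5, 25 and 25.7% of all mtDNA-encoded mRNA counts in A-498 with hairpin 1, hairpin 3 and the control, against 18.7, 19.5 and 18.9% in 786-O. Complex IV mRNAs together took 48.7 to 52.7% in A-498 and 44.2 to 47.7% in 786-O. Complex I mRNAs took 32.7 to 36.7% in A-498 and 37.5 to 40.2% in 786-O. In each of these the lines did not overlap. The other complex IV mRNAs did overlap by themselves. MT-CO2 took 14.2 to 16.8% in A-498 and 15.1 to 17.4% in 786-O, and MT-CO3 took 9.50 to 11.45% and 9.62 to 11.45%. The complex IV gap thus lay in MT-CO1. Shares of the same pool are tied, so a larger MT-CO1 share lowers the others, those of complex I included. The ATP synthase pair, at 8.25 to 9.12% in A-498 and 8.85 to 9.42% in 786-O, and MT-CYB, at 4.79 to 6.33% and 4.89 to 6.75%, did overlap.

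With both hairpins pooled, no mitochondrial row passed the test between ZNF395 knockdown and control. Of 17, 0 were called by edgeR (0 at an unadjusted p under 0.05), beside 0% of all genes called and 5.03% at an unadjusted p under 0.05. DESeq2 called 85 of 19183 genes (0.443%) and 0 of the members, and edgeR with the hairpin as a block called 0.129% of all genes and 0 members. The members' log2 fold changes ran from -0.59 for MT-TF to 0.07 for MT-ND5, with a median of -0.04, against 0.0004 over all genes tested, and a median standard error of 0.142. In the authors' deposited table, which sets control over knockdown, 16 MT- rows have an adjusted p and 0 of these are under 0.05. Of all 16046 rows there with an adjusted p, 85 are under 0.05.

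Among the mRNAs the lowest values were those of MT-CO3 and MT-CO2, while the third complex IV mRNA, MT-CO1, stood at -0.11 (SE 0.131). MT-CO3 stood at -0.25 on the log2 scale (SE 0.142, adjusted p = 0.939, edgeR) and MT-CO2 at -0.17 (SE 0.135, adjusted p = 0.95). In 5 of 17 rows (MT-CO2, MT-CO3, MT-ATP8, MT-TP and MT-TF), all 4 knockdown libraries lay below their line's control, beside 14% of all genes tested. In 0 of 17 did all 4 lie above it, beside 12.8% of all genes. For MT-ATP8 the margin in 786-O was thin, with 421 and 377 CPM with hairpins 1 and 3, against 422 CPM in the control.

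MT-RNR2 had the largest pooled difference among rows with more than a few counts, at -0.38 (SE 0.181, unadjusted p = 0.0746, adjusted p = 0.939, edgeR). The lines had unequal values. Within A-498 the log2 fold change was -0.70 (SE 0.230, unadjusted p = 0.0232, adjusted p = 1), and within 786-O it was -0.04 (SE 0.235, adjusted p = 1). The A-498 value minus the 786-O value was -0.65 (SE 0.333, unadjusted p = 0.0975, adjusted p = 1), which did not pass. Without the A-498 control library only 786-O informs the pooled value, which was then -0.07. Without the 786-O control only A-498 informs it, and it was -0.68. Leaving out a control therefore cannot tell whether that library is unusual.

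Within the lines, edgeR called 0 of 17 in A-498 and 0 of 17 in 786-O, and 0 for the difference between them, beside 0% of all genes in each. At an unadjusted p under 0.05, there were 348 genes (1.73%) in A-498, 334 (1.66%) in 786-O and 159 (0.789%) for the difference, with MT-RNR2 in A-498 the only member among them. DESeq2 called 21, 12 and 0 genes, with 0 members in each. In A-498 the members' median log2 fold change was -0.17, against 0.0007 over all genes tested, and 15 of 17 were negative. In 786-O the median was 0.04, against 0.003 over all genes tested, and 10 of 17 were positive. The rows of a line are set against the same control library and most share a precursor, so their signs are not independent. When libraries were scaled to their MT- totals the A-498 median became 0.07, and the median of all genes moved to 0.24.

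The shares of each class were compared in the same way. mRNAs took 5.49 ± 0.928% of the counts in the 4 knockdown libraries and 5.84 ± 1.39% in the 2 controls (SD; within-line log2 difference -0.08, p = 0.222, two-sided exact permutation within lines). rRNAs took 0.734 ± 0.202% and 0.982 ± 0.558% in knockdown and control libraries (log2 difference -0.33, p = 0.111, exact permutation within lines). Without the A-498 control only 786-O informs that difference, which was then -0.06. On leaving out each library it ran from -0.61 to -0.06. The light-strand pair took 0.1003 ± 0.0187% and 0.0970 ± 0.00163% (log2 difference 0.03, p = 0.889, exact permutation within lines). The smallest p this design allows is 0.111.

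Each hairpin was also set against the control over both lines, with the lines as replicates of a construct. With hairpin 1, 0 of 17 rows were called, beside 0.149% of all genes, and the members' median log2 fold change was -0.11. With hairpin 3, 0 of 17 were called, beside 6.71% of all genes, with a median of -0.09. The lowest p among members with hairpin 3 was that of MT-CO3 (log2 fold change -0.35, SE 0.143, unadjusted p = 0.0459, adjusted p = 0.185, edgeR), 1 of 17 with an unadjusted p under 0.05, beside 25.8% of all genes. At the high end with hairpin 3 were MT-ND6 (0.25, SE 0.156), MT-ND5 (0.23, SE 0.148), MT-RNR1 (0.18, SE 0.137) and MT-CYB (0.16, SE 0.140), with adjusted p of 0.371 to 0.525.

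The hairpins were then compared with each other. Hairpin 3 against hairpin 1 called 0 of 17 rows, beside 9.48% of all genes. The rows with the largest positive values were the far end of the heavy-strand transcript and MT-ND6 opposite it, followed by MT-RNR1 at the near end. MT-CYB, the cytochrome b mRNA of complex III, stood at 3877 CPM with hairpin 3 and 2861 CPM with hairpin 1 in A-498, and at 3246 and 2423 CPM in 786-O. Its controls, at 3728 CPM in A-498 and 2700.04 CPM in 786-O, lay between the hairpins in both lines. The log2 difference was 0.43 (SE 0.140, unadjusted p = 0.0184, adjusted p = 0.103, edgeR). An unadjusted p under 0.05 was reached by 2 of 17, MT-CYB and MT-ND6, beside 28% of all genes.

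MT-CYB was the member nearest to a call. It passed when no filter on low counts was applied (0.42, adjusted p = 0.0359, edgeR), beside 9.63% of all genes called. It also passed by DESeq2 (0.42, adjusted p = 0.0310), beside 19.2% of all genes called. With the other scalings its adjusted p was 0.0737 to 0.105 (edgeR). Over all alternatives run its log2 difference was 0.37 to 0.50.

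MT-ND5, the largest complex I mRNA, stood at 4403 CPM with hairpin 3 and 3094 CPM with hairpin 1 in A-498, and at 4111 and 3622 CPM in 786-O (log2 difference 0.34, SE 0.148, adjusted p = 0.188). MT-ND6, the complex I mRNA of the light strand, stood at 1144 and 723 CPM in A-498 and at 1034 and 926 CPM in 786-O in the same order (0.41, SE 0.157, adjusted p = 0.148). For both genes hairpin 3 was higher in each line, and the gap was wider in A-498. Without the 786-O hairpin 3 library the MT-ND6 difference was 0.61, and without the A-498 hairpin 1 library it was 0.21. Each of these fits leaves a hairpin with 1 library. MT-RNR1 differed by 0.28 (SE 0.137) in the same direction.

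At the other end, MT-ND1, the first mRNA after the rRNAs, stood at 1782 CPM with hairpin 3 and 1885 CPM with hairpin 1 in A-498, and at 1665 and 2100.04 CPM in 786-O (log2 difference -0.21, SE 0.157). In 5 of 17 rows hairpin 3 exceeded hairpin 1 in both lines, beside 31.9% of all genes, and in 7 it was lower in both, beside 32.8%. Read along the 12 heavy-strand mRNAs from MT-ND1 to MT-CYB, the log2 ratio of hairpin 3 to hairpin 1 had a Spearman correlation with gene order of 0.64 in A-498 and 0.69 in 786-O. The order is that of distance from the promoters. The genes share libraries and are not independent, so this is a description. It leaves out the rRNAs, which lie nearer the promoters. Their log2 ratios were 0.27 in A-498 and 0.30 in 786-O for MT-RNR1, and 0.16 and -0.11 for MT-RNR2.

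**Figure D4:**
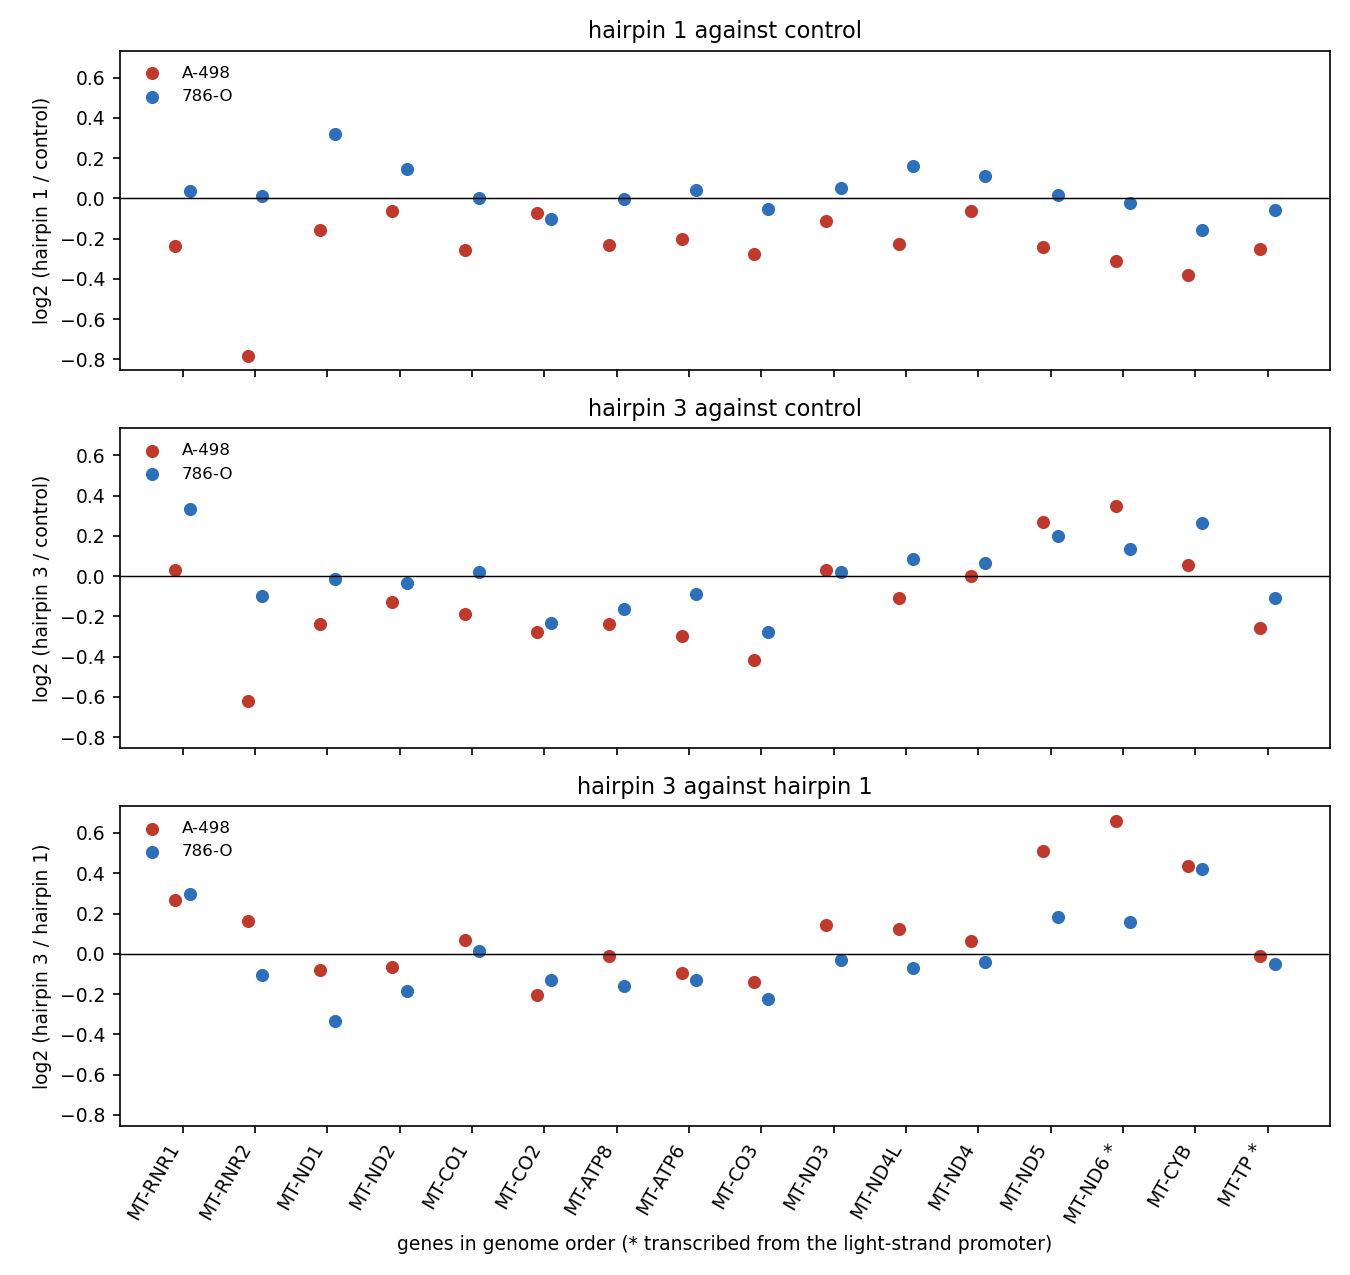
Log2 ratios of CPM are plotted for 16 rows in genome order, for hairpin 1 against control (top), hairpin 3 against control (middle) and hairpin 3 against hairpin 1 (bottom), with A-498 in red and 786-O in blue. In the bottom panel MT-RNR1, MT-CO1, MT-ND5, MT-ND6 and MT-CYB lie above 0 in both lines (MT-CYB at 0.44 in A-498 and 0.42 in 786-O). In the panels against control MT-RNR2 lies at -0.78 and -0.62 in A-498 and at 0.01 and -0.10 in 786-O.

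MT-ND6 relates both strands to each other, because its RNA comes from the light-strand promoter alone. Its count was 1.23, 1.90 and 1.34% of that of the other 12 mRNAs in A-498 with hairpin 1, hairpin 3 and the control, against 1.90, 2.20 and 1.96% in 786-O. In A-498 the hairpin 3 library stood apart from the other two, and it came just below the lowest 786-O value. The log2 difference between the lines was -0.46, with a p of 0.1, the smallest possible in a two-sided exact permutation test of 3 against 3. Knockdown against control gave 0.12 (p = 0.778, exact permutation within lines). The strand setting of the counting is not given, and without strand MT-ND6 cannot be told apart from antisense RNA of the heavy-strand precursor that runs through it.

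Nuclear genes that copy, transcribe, process and decay mitochondrial RNA were read as 6 lists with 94 genes tested, chosen with earlier results of these data known. With both hairpins pooled, 0 of 94 were called, and with hairpin 1 alone, 0. With hairpin 3 against the control, 3 rose and 4 fell by edgeR, beside 2.55% and 4.16% of all genes, so the lists were near the background. The list medians lay between -0.10 and 0.23 with hairpin 3. In the 10 genes of the transcription list, 1 fell and 0 rose. In the 11 biogenesis regulators, 2 rose and 1 fell.

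TFB2M, which opens the promoter DNA for POLRMT, fell with hairpin 3. It stood at 14.5 CPM with hairpin 3, 33.5 with hairpin 1 and 37.0 in the control in A-498, and at 15.99, 28.9 and 31.3 CPM in 786-O. The hairpin 3 libraries were far below the others in both lines (log2 fold change -1.16, SE 0.152, adjusted p = 0.0146, edgeR), while hairpin 1 gave -0.13 (SE 0.149, adjusted p = 0.823). The difference between the hairpins was itself called (-1.03, adjusted p = 0.0146). Its partners did not pass with hairpin 3: POLRMT had a log2 fold change of -0.29 (SE 0.1496) and TFAM of -0.15 (SE 0.161).

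HSD17B10, the dehydrogenase subunit of mitochondrial RNase P, was higher in all 4 knockdown libraries. It stood at 43.8 and 42.7 CPM with hairpins 1 and 3 in A-498, against 22.7 CPM in the control, and at 86.3 and 88.5 CPM in 786-O, against 35.5 CPM. It rose with hairpin 3 (1.11, SE 0.142, adjusted p = 0.0143, edgeR), and hairpin 1 gave an equal fold that did not pass (1.11, SE 0.142, adjusted p = 0.0668). Its row overlaps a further annotated gene, so the count is uncertain to that extent. ELAC2, which cuts the other end of the tRNAs, had -0.05 (SE 0.125) with hairpin 3. The tRNA row with usable counts, MT-TP, stood at 46.0 and 45.7 CPM with hairpins 1 and 3 in A-498, against 54.7 CPM in the control, and at 46.5 and 44.9 CPM in 786-O, against 48.4 CPM.

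Other genes called with hairpin 3 were GABPB1 (0.88, adjusted p = 0.0247) and GABPA (-0.61, adjusted p = 0.0385), subunits of a transcription factor of nuclear respiratory genes, MYC (0.58, adjusted p = 0.0460), the mitochondrial thymidine kinase TK2 (-0.86, adjusted p = 0.0407) and NSUN4 (-0.71, adjusted p = 0.0328), a methyltransferase of mitochondrial rRNA (edgeR). LRPPRC, which stabilises the mRNAs, stood at 258 to 324 CPM in A-498 and 224 to 266 CPM in 786-O and had -0.24 (SE 0.124) with hairpin 3. It was not called in any comparison.

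Between the lines, 16 of the 94 were higher in A-498 and 19 lower, beside 25.7% and 21.4% of all genes. POLRMT stood at 49.9, 30.8 and 40.7 CPM in A-498 with hairpin 1, hairpin 3 and the control, against 80.6, 71.1 and 81.0 CPM in 786-O. It was lower in A-498 (-0.94, SE 0.203, adjusted p = 0.00968, edgeR), the line with the higher mitochondrial share. HSD17B10 was also lower in A-498 (-0.89, adjusted p = 0.0029) and ELAC2 higher (0.39, adjusted p = 0.0435). TFAM (-0.27) and LRPPRC (0.25) did not pass.

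By the summed log2 CPM of the mRNAs over the 6 libraries, the nuclear genes with the most similar pattern among 11011 with a mean of at least 5 CPM were RNF128, METRN, CDC37L1, PRKAR1B and ZNF226. Their Pearson correlations were 0.998, 0.997, 0.993, 0.993 and 0.992. All were highest in the A-498 control, and the lines did not overlap. With 6 libraries in 2 separate clusters, these values rank likeness and nothing more.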

How the data were processed

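The authors deposited read counts per gene symbol, without normalization, for 6 libraries. Every row has a summed count of at least 2. The submitters' processing notes name STAR, DESeq2, hg19 and hs37d5. Counting tool, annotation and strand setting: not given in the sources used here. Also deposited, per the file headers, were DESeq2's mean signal, log2 fold change, its error, test score, p-value and adjusted p-value.

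The counts went through edgeR 4.0.16 (R 4.3.3): TMM scaling, its expression filter (20144 genes kept) and quasi-likelihood F tests. Genes with a Benjamini-Hochberg adjusted p under 0.05 are called, and a standard error is the fold divided by the root of F. The pooled and between-line tests had line and knockdown as terms (3 residual degrees of freedom), the hairpin tests line and construct (2), and the within-line tests 4 means (2). Scripts were tested on simulated data. CPM are TMM-scaled. Shares were compared by exact permutation (scipy 1.17.1). Every mRNA and rRNA row is named. Nuclear genes are named where called in a knockdown comparison, with TFAM, POLRMT, LRPPRC, HSD17B10 and ELAC2 always. Members and lists were chosen with earlier results of these data known. Alternatives were other scalings, no filter, DESeq2 1.42.0, each library left out, a construct block and other denominators. The labels hold no batch or date. A marker of the renal list is not reported here.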

Additional observations from a re-analysis of the deposited data

How the results depend on the processing

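MT-CO1 and MT-RNR2 were called as higher in A-498 under all 12 alternatives run, with adjusted p of 1.5e-05 to 0.0378 and 5.4e-04 to 0.0494. Against 2 rows called as higher in A-498, scaling to library totals gave 6 and the replicate block 4 (adding MT-CO3, 0.35, and MT-CYB, 0.32). Of all genes, 46.4% and 61.9% were called in either direction under these settings. Called as lower in A-498 was 1 row, MT-TF, when scaled to summed MT- counts, and 0 to 1 on leaving out each library, MT-TF without 786-O hairpin 3. All genes called in either direction were 56.7% and 39.8% in these 2 settings. For hairpin 3 against hairpin 1, MT-CYB was called as higher with no filter, beside 9.63% of all genes, and by DESeq2, beside 19.2%. Leaving out the 786-O hairpin 3 library moved MT-ND6 from 0.41 to 0.61. With no filter, the nuclear lists had 1 gene higher with hairpin 1 (0 with the filter), 5 with hairpin 3 (3) and 9 between the lines (16). In the same order, 1.48, 8.2 and 31.1% of all genes were called in either direction with no filter. The cause was not tested in any of these.

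Small differences changed sign. The light-strand share between the lines was 0.0305 over counts without MT- genes, 0.00365 without MT- rRNA rows, and -0.174 to 0.149 on leaving out each library. Knockdown against control gave -0.132 to 0.191 for that share and -0.0338 to 0.283 for the MT-ND6 ratio on leaving out each library. Each row was also read in each comparison under each alternative. Of these values, 146 that were not called changed sign, beside 1297 that stayed the same and 11 called only in the alternative.

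The replicate numbers in the labels are hairpin numbers, a shared reagent and not a shared culture. The hairpin difference correlated between the lines (Pearson r 0.577 over 11027 genes). With the replicate block, 26 genes were called between knockdown and control, 0 of them members. The controls carry neither hairpin, so that no library pairs across knockdown and control. Where a left-out library leaves a construct with 1 sample, that sample is assumed to vary like the others. The within-line and interaction tests could not be run without the control of the line concerned. Depth limits MT-TF, at 4 to 22 counts; for the other rows the lack of repeat cultures sets the error.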

Other observations

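The table also holds 39 rows named as nuclear copies of 10 of the mitochondrial genes, with 140616 counts in all, or 0.423% of the MT- counts. Of these, 10 have at least 100 counts. MTND2P28, a copy of MT-ND2, has 86097 counts, 5.17% of those of MT-ND2. The copies of MT-ND2 together reached 6.12, 5.90 and 5.72% of MT-ND2 in A-498 with hairpin 1, hairpin 3 and the control, against 4.66, 4.18 and 3.68% in 786-O, so that the lines did not overlap. MTATP6P1 has 28401 counts (1.21% of MT-ATP6) and MTND1P23 has 14197 (1.48% of MT-ND1). For MT-CO1 the only copy row has 3 counts, and for MT-RNR2 the copies reach 0.0959%. How reads that match both a copy and its parent were counted was not given in the sources used here.

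The hairpin 3 libraries of both lines had a larger share of their mtDNA-encoded mRNA counts on MT-CYB, at 6.33% in A-498 and 6.75% in 786-O, than hairpin 1, at 4.79 and 4.89%. Per kb, MT-CYB stood at 1.82 times the level of MT-ND1 with hairpin 3 and 1.27 times with hairpin 1 in A-498, and at 1.63 and 0.967 times in 786-O. The controls were at 1.49 in A-498 and 1.35 in 786-O. This was chosen after its values were seen and was not tested.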
